A study of Mus musculus with 2 samples.

Results

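The genes described are targets of the hypoxia response that act outside glycolysis, measured in mouse Flk-1-positive early mesodermal cells in which AU019823 was disrupted, against cells in which the disruption had been reverted. The set was given as 10 gene symbols, and 9 of them (Bnip3l, Ankrd37, Car9, Ndrg1, Adm, Higd1a, Mif, Ddit4 and Mxi1) carried 10 probes in the probe-to-gene annotation, out of 16444 named genes. The tenth, Bnip3, is not analysed here. Higd1a had 2 probes and the probe with the higher mean spot median of both arrays stood for it, while each of the other 8 genes had 1 probe. The genes were chosen by symbol with the log2 differences of these data known, and the probe was selected on spot brightness, so every value below is a description of 2 libraries.

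The gene-trapped sample came from embryonic stem cells with AU019823 disrupted on both alleles, and the revertant sample from embryonic stem cells whose genotype the labels call close to wild type. All cells had been grown on OP9, a mouse stromal line that supports blood formation, were stained for Flk-1 (the product of Kdr, a receptor found on early mesoderm) and were sorted by fluorescence. The labels give day 4.5 in the sample descriptions but a coculture of 4 days in the protocol, and 300000 gene-trapped and 350000 revertant cells for RNA. Each sample carries its own code, cl.3 for gene-trapped and cl.4 for revertant; the labels do not explain it, and if it names a clone, clone and genotype cannot be told apart.

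There was 1 array per group, so no difference has a replicate check, neither p-values nor standard errors could be had, and the number of arrays limits the precision. The median probe signal was 38.6 on the gene-trapped and 47.5 on the revertant array, and 82.6% and 83.9% of probes lay above the background limits of 22.3 and 24.99, the mean of the blank spots plus 2 SD on the gene-trapped and the revertant array. The positive control spots, 24 of each of 2 kinds, had SDs of the log2 difference between arrays of 0.107 and 0.0988, a technical spread of bright spots within 1 pair of arrays and not a spread between cultures. The probe of AU019823 had a spot median of 297 in gene-trapped and 486 in revertant cells (log2 difference -0.39), and since its place relative to the trap is not given it does not check the labels. All 10 early mesoderm markers were above background on both arrays, and their summed spot medians were 4552 in gene-trapped and 3834 in revertant cells. Of these markers 6 had log2 differences above 0 and 4 below, with a median of 0.18, and 2 were at least 2-fold higher in gene-trapped cells: Mixl1 (669 in gene-trapped and 181 in revertant cells, 1.99) and Etv2 (1739 in gene-trapped and 810 in revertant cells, 1.30). The brachyury gene T had 0.76, Kdr -0.65 (537 in gene-trapped and 1025 in revertant cells) and Tal1 -0.69. With the local background of the scanner subtracted, Mixl1 had 1.40, Etv2 1.13, T 0.39, Kdr -2.04 and Tal1 -0.51. The part of these differences between the sorted cells in those of the hypoxia targets was not tested.

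When oxygen is short, the alpha subunits encoded by Hif1a and Epas1 escape the prolyl hydroxylases of the Egln family, which otherwise mark them for destruction through the von Hippel-Lindau protein. They pair with the product of Arnt and bind short motifs in promoters and enhancers, the hypoxia response elements. Beside glycolysis, the response reaches mitochondrial turnover, the pH at the cell surface, blood vessels and growth control, and embryos pass through gastrulation in low oxygen. Ddit4 and Ndrg1 are also known to respond to stresses other than hypoxia.

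Higd1a, Bnip3l, Ndrg1, Mxi1 and Ankrd37 had lower signals in gene-trapped than in revertant cells by at least 1.5-fold, whereas Adm and Mif differed less and Ddit4 and Car9 lay near 0. Ndrg1 differed most, at 3.27-fold lower, and was the 1 of 9 genes at least 2-fold lower, against a background of 1.08% of the 13753 named genes above background on both arrays. None of the 9 was at least 2-fold higher, against 0.334% of all named genes. At 1.5-fold, a size chosen after the values were seen, 5 of 9 were lower, against 3.52% of all named genes. The median log2 difference of the 9 genes was -0.62, against 0.0079 for all named genes, and 8 of the 9 lay below 0, against 6407 of the 13753. Differences are on the log2 scale of signals after background correction and quantile normalization, gene-trapped minus revertant. The offset of 50 used in that correction makes differences of dim probes smaller. Ratios of spots are taken before normalization between the arrays, so they differ from these values for that reason too.

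**Figure D1:**
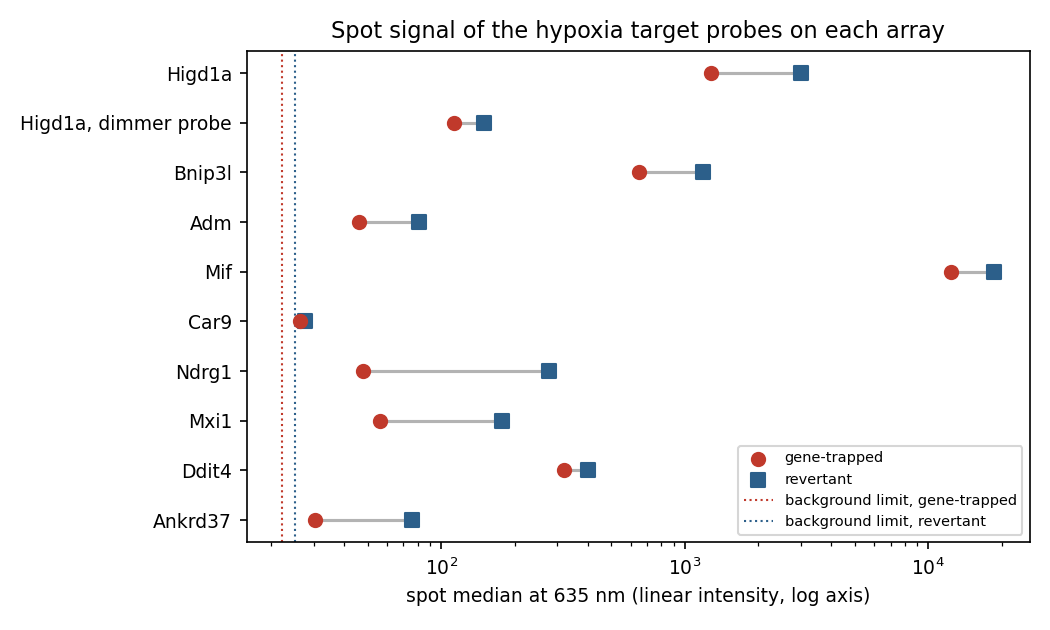
Spot median (linear intensity on a log axis) of the 10 probes of the 9 genes on the gene-trapped array (circles) and the revertant array (squares), joined by a line per probe, with dotted lines at the background limits of 22.3 and 24.99. Every probe has the lower spot median on the gene-trapped array, the gap being widest for Ndrg1 (47.9 in gene-trapped against 277 in revertant cells) and narrowest for Car9 (26.3 against 27.7), while the median of all probes is also lower there (38.6 against 47.5).

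Among the lists of markers for other cell types, that of OP9 stromal cells or fibroblasts was mostly lower in gene-trapped cells. Below 0 in the other lists were 1 of 3 measured endoderm, 2 of 4 macrophage and 2 of 5 undifferentiated stem cell markers. Of 10 markers of OP9 stromal cells or fibroblasts, all but Dcn were above background on both arrays. Of these 9, 7 were lower in gene-trapped cells, 3 of them at least 2-fold, with a median of -0.41. Thy1 at 0.02 and Lum at 0.06 lay above 0. Their spot medians were 36.1 and 32.1 in gene-trapped cells, against 42.9 and 35.8 in revertant cells. Summed over all 10, Dcn included, the spot medians before normalization were 1940 in gene-trapped and 5705 in revertant cells. Acta2 alone had 1195 in gene-trapped and 3603 in revertant cells. The lowest differences were Col5a1 at -1.61, Col1a1 at -1.49, Acta2 at -1.30 and Col3a1 at -0.79. With the local background of the scanner subtracted, Col5a1 had -1.20, Col1a1 -1.26, Acta2 -1.31 and Col3a1 -0.12. The cells had been sorted for Flk-1, a gate that removes stromal cells without this receptor. The part of the stromal markers in the differences of the hypoxia targets was not tested. Of 6 endoderm markers Foxa1, Afp and Ttr were not above background on both arrays, of 6 macrophage markers Ptprc and Cd14 were not, and no measured marker of either list was 2-fold apart. All 6 endoderm markers summed to 142 in gene-trapped and 165 in revertant cells, and all 6 macrophage markers to 237 and 292. These sums include the genes under the limits and the blank level, a mean of 20.1 per gene-trapped and 22.5 per revertant spot. The median log2 differences of the measured markers were 0.005 for endoderm and -0.018 for macrophages. Of 7 listed markers of undifferentiated stem cells, 5 were matched to a probe. These 5 summed to 860 in gene-trapped and 1253 in revertant cells and had a median log2 difference of 0.03. Klf4 alone had 644 in gene-trapped and 994 in revertant cells, with a log2 difference of -0.36. In bulk RNA, fewer cells of a type and less RNA per cell cannot be told apart.

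Of the genes of mitochondria, Higd1a encodes a protein of the inner membrane that associates with the respiratory chain. Its brighter probe, M400002886, had a spot median of 1279 in gene-trapped cells, against 3001 in revertant cells. This is a log2 difference of -0.95 (1.94-fold lower), just short of the 2-fold size. The dimmer probe, M400002132, did not show that gap, with spot medians of 113 in gene-trapped and 150 in revertant cells and a log2 difference of -0.02. The probes of Higd1a therefore disagree, and the mean of both was -0.49. The spread of the control spots is that of repeated bright spots, so it does not measure how far 2 probes of a gene may differ. Its relatives Higd2a and Higd1c had 0.27 and 0.02. The place of each probe in the transcript was not used here. The 250 bases before the RefSeq start of Higd1a (GRCm38.p6, as for all stretches shown) are given because they hold overlapping matches of a core motif of the hypoxia response, and capitals mark such matches here and below.
Higd1a (chr9:121857797-121858046, minus strand): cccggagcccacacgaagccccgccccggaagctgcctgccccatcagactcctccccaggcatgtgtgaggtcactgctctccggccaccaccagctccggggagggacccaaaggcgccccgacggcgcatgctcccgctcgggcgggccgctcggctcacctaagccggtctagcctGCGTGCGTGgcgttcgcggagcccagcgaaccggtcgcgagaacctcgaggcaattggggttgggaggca

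Bnip3l, also called Nix, encodes a receptor in the outer mitochondrial membrane that brings mitochondria to autophagy and in the mouse is needed to clear them from maturing red cells. The probe gave a spot median of 648 in gene-trapped cells, against 1184 in revertant cells. After normalization the log2 difference was -0.62 (1.53-fold lower), and it ranged from -0.70 to -0.51 over the 10 other processing settings. Of these settings, the mean of a gene's probes and the changes of the background filter could not move the Bnip3l value. Of 17 other mitophagy and autophagy genes that exceeded the limits on both arrays, none was 2-fold apart, and their median was 0.04. Pink1, a kinase that marks damaged mitochondria, was the lowest of them at -0.98, with spot medians of 51.9 in gene-trapped and 163 in revertant cells. The largest differences of the others were 0.48 for Atg5, which acts in autophagosome formation, -0.41 for the cargo receptor gene Sqstm1 and -0.39 for Gabarap, so the list went both ways, with 5 genes below 0, 11 above and Gabarapl1 at 0.

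Of the genes of secreted and cell surface proteins, Adm encodes adrenomedullin, a peptide that widens and stabilises vessels. The Adm spot median was 46.0 in gene-trapped cells, against 81.1 in revertant cells. Normalized, the gene differed by -0.32 on the log2 scale (1.25-fold lower). With the same normalization but no background correction, and so no offset, the log2 difference was -0.49. The spots themselves differed 1.76-fold, a ratio taken before normalization. The related peptide gene Adm2 had a spot median of 25.3 in gene-trapped cells, not far above the limit of 22.3, against 110 in revertant cells, and a log2 difference of -1.12, which was -0.26 with the local background of the scanner subtracted. The receptor for adrenomedullin is made of the products of Calcrl and Ramp2 or Ramp3. Ramp2 had -0.75, Ramp1 -0.27 and Calcrl -0.17, and all 5 genes of the adrenomedullin list above background on both arrays lay below 0, Adm2 being the 1 of them at least 2-fold lower. The stretch before the start of Adm is shown for its 2 motif matches, both read on the opposite strand.
Adm (chr7:110627407-110627656, plus strand): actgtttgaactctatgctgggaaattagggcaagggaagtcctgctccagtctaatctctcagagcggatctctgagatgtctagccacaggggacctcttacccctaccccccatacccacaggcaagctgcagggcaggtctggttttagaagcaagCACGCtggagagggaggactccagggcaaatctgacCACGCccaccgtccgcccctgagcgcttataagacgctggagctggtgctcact

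Mif encodes macrophage migration inhibitory factor, a secreted cytokine. Its spot median was 12347 in gene-trapped cells, against 18639 in revertant cells, a log2 difference of -0.15 after normalization. That difference is close to the technical spread of the control spots. It turned to 0.05 with the local background subtracted and was -0.45 under median scaling, so its direction depends on the processing. The RefSeq gene table holds 7 loci that are named, or also named, Mif-ps, and whether the probe tells Mif from them was not tested. Ddt, the relative of Mif, had 0.18, and -0.16 with the local background subtracted. Of the receptor list, Ackr3 (Cmkor1 in the annotation) had -0.82, but 2.83 with the local background subtracted, whereas Cxcr4 had -0.07, Cxcr2 (Il8rb) -0.02 and Cops5 0.02.

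Car9 encodes a carbonic anhydrase of the cell surface that is induced strongly by hypoxia in many human tumours. The Car9 spot median was 26.3 in gene-trapped cells, against 27.7 in revertant cells. Both lie within a few units of the background limits of 22.3 and 24.99, so a difference was not detectable at this signal. The log2 difference was 0.07, and the 1.55-fold higher value in the authors' deposited table is a ratio of 5.33 in gene-trapped and 3.45 in revertant cells after the blank level was taken away. Among other carbonic anhydrase genes, Car4 had -0.89, with spot medians of 1624 in gene-trapped and 3649 in revertant cells, Car14 had 0.13 and Car2 0.12. Car2 turned to -0.14 with the local background subtracted. The stretch before the start of Car9 is shown because it holds a single match, close to the start.
Car9 (chr4:43506776-43507025, plus strand): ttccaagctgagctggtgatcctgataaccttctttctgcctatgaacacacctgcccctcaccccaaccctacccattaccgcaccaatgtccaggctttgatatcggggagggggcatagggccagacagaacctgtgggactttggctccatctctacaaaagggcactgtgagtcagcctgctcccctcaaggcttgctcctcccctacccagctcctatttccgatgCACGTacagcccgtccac

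Of the genes of growth control, Ndrg1 encodes a cytoplasmic protein induced by several stresses and known for restraining tumour spread. For this gene the spot median was 47.9 in gene-trapped cells, against 277 in revertant cells. On the log2 scale the difference was -1.71 (3.27-fold lower), rank 22 from the lowest of 13753 genes, and the spots themselves differed 5.78-fold. With all genes split into 4 equal groups by signal, 1.60% of its group were at least 2-fold lower. The scanner's local background at this spot was 29.0 on the gene-trapped and 232 on the revertant array, and with it subtracted the log2 difference was -0.32, so the size of the Ndrg1 difference rests on how that column is treated. In that setting Higd1a, at -1.31, was the 1 gene of the set at least 2-fold lower. Of the relatives of Ndrg1, Ndrg2 had -0.77 with 27.5 in gene-trapped and 82.3 in revertant cells, Ndrg3 had -0.45 and Ndrg4 0.03.

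Mxi1 encodes a partner of Max that competes with Myc and represses its targets. Its spot median was 56.1 in gene-trapped cells, against 177 in revertant cells. The log2 difference was -0.99 (1.98-fold lower), the nearest of the set to the 2-fold size without passing it, and it passed in 4 of the 10 other settings. Among those 10, the mean of a gene's probes and the changes of the background filter could not move the Mxi1 value. The other Mxd family genes differed less, Mxd4 at -0.42, Mxd1 at -0.10 and Mxd3 at -0.09, and Mnt, which encodes another partner of Max, had -0.13. In the whole network of 14 genes around Myc and Max, 9 lay above 0 and none was at least 2-fold apart, with Myc itself at 0.38, Max at 0.30 and the corepressor gene Sin3b at -0.24, which turned to 1.62 with the local background subtracted. RefSeq gives 3 starts for Mxi1, and the stretch before the second is shown because it and the third hold a match and the first does not.
Mxi1, second start (chr19:53329163-53329412, plus strand): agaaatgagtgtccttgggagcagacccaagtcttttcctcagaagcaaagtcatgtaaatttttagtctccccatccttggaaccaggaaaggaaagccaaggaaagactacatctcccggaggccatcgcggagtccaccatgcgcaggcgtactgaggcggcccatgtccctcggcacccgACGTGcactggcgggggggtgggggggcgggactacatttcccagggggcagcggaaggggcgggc

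Ddit4, also called REDD1, encodes a brake on the growth kinase complex mTORC1 that acts through the Tsc1 and Tsc2 proteins. Its spot median was 319 in gene-trapped cells, against 402 in revertant cells, and the log2 difference was -0.02. Its relative Ddit4l, known for the same brake, was far higher in gene-trapped cells, with a spot median of 146, against 35.3 in revertant cells, and a log2 difference of 1.62, which was 0.64 with the local background subtracted. Ddit4l was the 1 of 15 genes around mTORC1 at least 2-fold apart. Rheb, the small GTPase that turns mTORC1 on, had -0.43 (0.11 with that subtraction), the kinase subunit gene Prkaa2 had 0.41 and Akt1s1 had 0.15. Ddit4 is also a target of the stress factor Atf4. Of 13 measured genes of that pathway 6 were at least 2-fold lower, against 1.08% of all named genes, and 0 higher. Their median was -0.97. Trib3 had -2.30, Ddit3 -1.90, Chac1 -1.83 and the asparagine synthetase gene Asns -1.55, and Ddit4 itself stood at rank 5226 from the lowest of the 13753 genes. With the local background subtracted, the median of the Atf4 list was -0.67 and Asns had -0.02. The stretch before the start of Ddit4 is shown for comparison, since it holds both motifs.
Ddit4 (chr10:59951771-59952020, minus strand): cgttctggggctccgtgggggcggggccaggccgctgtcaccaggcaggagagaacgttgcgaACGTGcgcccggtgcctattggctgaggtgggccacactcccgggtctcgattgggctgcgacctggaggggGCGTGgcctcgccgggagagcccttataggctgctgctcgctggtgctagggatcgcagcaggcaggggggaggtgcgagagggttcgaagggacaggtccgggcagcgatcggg

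Ankrd37 encodes a small ankyrin repeat protein whose function is little known. Spot medians were 30.3 in gene-trapped cells, against 76.1 in revertant cells. The log2 difference was -0.62 (1.53-fold lower), while the spots themselves differed 2.51-fold and the authors' deposited table, which takes the blank level away without an offset, holds 8.72 for gene-trapped and 35.3 for revertant cells, 4.05-fold lower. In its group by signal 0.931% of genes were at least 1.5-fold lower, and it passed 2-fold in 3 of the 10 other settings. It fell short of 1.5-fold lower in 2 of them, at -0.38 with the local background subtracted and -0.49 under 75th percentile scaling. The mean of a gene's probes and the changes of the background filter could not move the Ankrd37 value. The stretch before the start of Ankrd37 holds 4 matches, more than any other measured gene of the set.
Ankrd37 (chr8:45999851-46000100, minus strand): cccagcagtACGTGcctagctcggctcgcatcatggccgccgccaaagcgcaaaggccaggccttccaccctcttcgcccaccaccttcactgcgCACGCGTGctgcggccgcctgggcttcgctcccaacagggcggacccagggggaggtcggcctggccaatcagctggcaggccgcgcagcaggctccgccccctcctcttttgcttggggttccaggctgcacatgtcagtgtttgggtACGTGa

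**Figure D2:**
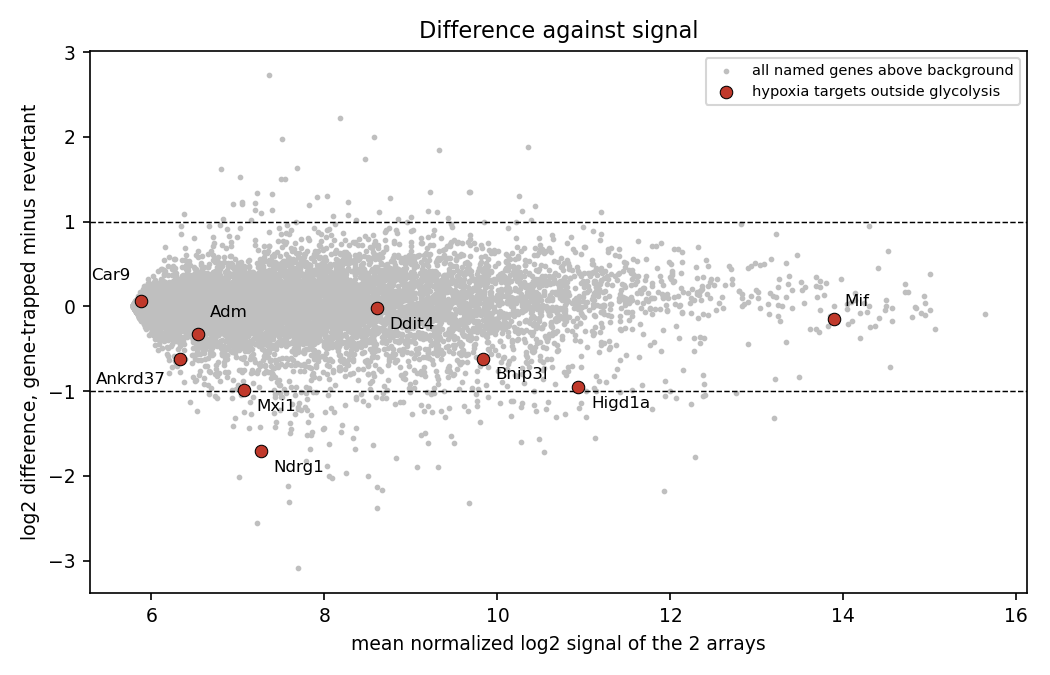
Log2 difference (gene-trapped minus revertant) against the mean normalized log2 signal of the 2 arrays for the 13753 named genes above background on both arrays (grey) and the 9 hypoxia targets (red, named), with dashed lines at the 2-fold size. Ndrg1 lies below the lower line, Mxi1 and Higd1a on its edge at -0.99 and -0.95, and Ddit4, Mif and Car9 within the bulk of genes.

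The motifs searched were ACGTG and GCGTG, the core forms of the hypoxia response element, on both strands of RefSeq windows (GRCm38.p6) from 250 bases before to 50 after each start. A match on both strands of 1 palindrome counts as 2, and GCGTG matches may overlap each other. Windows were at hand for 7 of the 9 measured genes, all but Bnip3l and Ndrg1, and each of the 7 genes had at least 1 match. At least 1 match was held by 43.8% of all 32851 windows, and of the 15291 windows with a GC content of at least 54%, the lowest among the measured genes, 62.5% held 1. These shares are per window and not per gene, and Mxi1 had 3 windows. The GC content was 69% for Ankrd37 and Ddit4 and 72.7% for Higd1a, so a floor of 54% does not match these genes. Ankrd37, at -0.62, had 4 matches and Higd1a, at -0.95, had 3, but Ddit4, at -0.02, and Adm, at -0.32, had 2 each. Mif and Car9 had 1 each, that of Mif lying after the start, and Mxi1 had 1 at each start but the first. The number of matches is a description of letters in a short window and shows no binding.

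**Figure D3:**
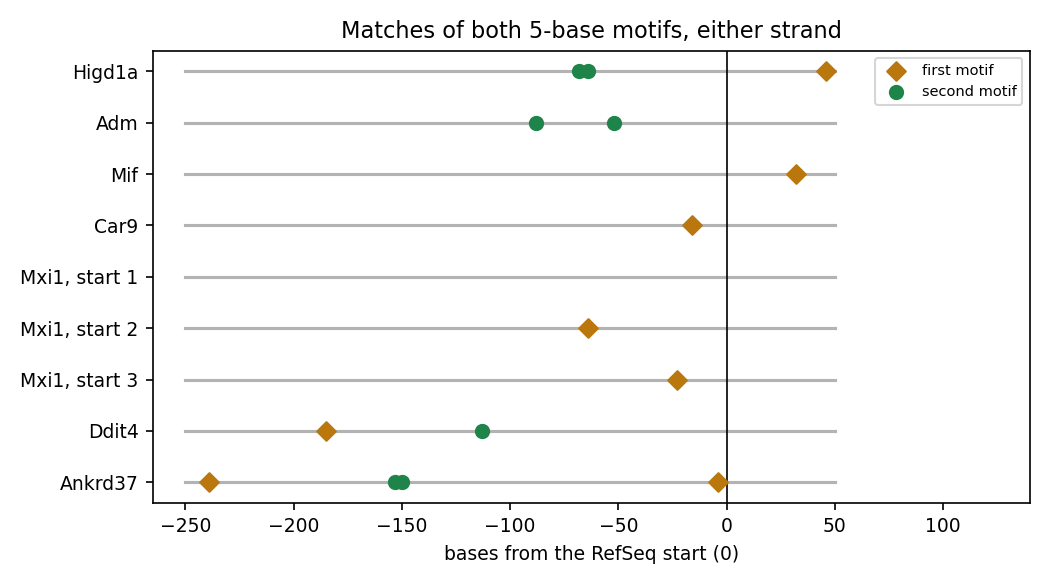
Positions of matches of the first motif (ACGTG, diamonds) and the second motif (GCGTG, circles), on either strand, in bases from the RefSeq start for the 7 measured genes with a window, 3 windows for Mxi1. Ankrd37 has 4 matches and the first start of Mxi1 none, and the matches of Mif and 1 of the 3 of Higd1a lie after the start.

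Of the 10 genes that encode the oxygen sensing machinery itself, 2 were at least 2-fold lower and 0 higher. Hif1a had a spot median of 459 in gene-trapped and 596 in revertant cells and a log2 difference of -0.10, and Epas1 had -0.26 and Arnt -0.15. The hydroxylase genes Egln1 and Egln3, which are hypoxia targets in their own right, were lower. Egln1 had -1.64, with spot medians of 161 in gene-trapped and 689 in revertant cells. Egln3 had -1.48, with 94.1 in gene-trapped and 395 in revertant cells. Hif1an, which encodes the asparagine hydroxylase, had 0.27. Egln1 had -0.26 with the local background subtracted, whereas Egln3 had -1.50.

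Other hypoxia targets were taken from lists put together with earlier results known. Among 32 other targets outside glycolysis with signal over both limits, 7 were at least 2-fold lower and 0 higher, 30 lay below 0, and the median was -0.21. Stc2, which encodes a secreted glycoprotein, had -2.02, the oxidase gene Ero1l -2.0, the collagen prolyl hydroxylase gene P4ha2 -1.97 and Pdk1, which restrains pyruvate entry into mitochondria, -1.68. With the local background subtracted, Ero1l had -0.31 and Stc2 -0.90. There 9 of the 32 lay above 0, with the transferrin receptor gene Tfrc at 1.18 (-0.16 in the main setting) the highest. Among 20 glycolytic targets 10 were at least 2-fold lower and 0 higher, all 20 lay below 0, and the median was -0.97. The glucose transporter genes Slc2a3 and Slc2a1 had -2.18 and -1.78, the phosphofructokinase gene Pfkp -2.13 and the aldolase gene Aldoc -1.55. With the local background subtracted, the median of the glycolytic list was -0.56, and 3 of its genes, named here after their values were seen, turned above 0: the lactate transporter gene Slc16a3 at 2.17 (-1.12 in the main setting), Gpi1 at 0.14 (-1.11) and Hk2 at 0.04 (-0.38). The median of the 9 genes described here, -0.62, lay between those of both lists, and with 1 array a group the differences between lists were not tested. Egln1 and Egln3 stand on more than 1 list.

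**Figure D4:**
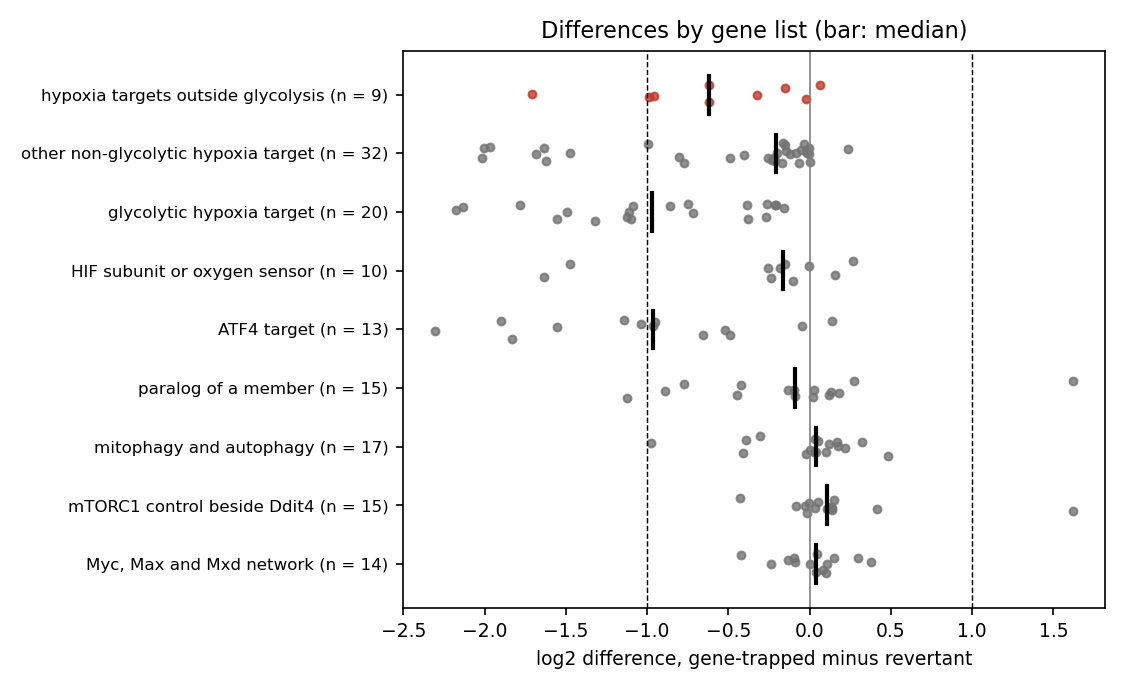
Log2 difference (gene-trapped minus revertant) of each gene above background on both arrays, by gene list, with a black bar at the list's median and dashed lines at the 2-fold size. The hypoxia targets outside glycolysis have a median of -0.62, the glycolytic targets -0.97 and the other targets -0.21, while the mitophagy, mTORC1 and Myc lists have medians of 0.04, 0.11 and 0.04.

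The direction and size of the differences were compared over 10 other processing settings. Ndrg1, Mxi1, Higd1a, Bnip3l, Ankrd37 and Adm were negative in all 10, and Ndrg1 was at least 2-fold lower in 9 of them. Not all 10 settings are a check on each gene. With the mean of a gene's probes, without a filter and under the stricter background limit, Ndrg1, Mxi1, Bnip3l, Ankrd37 and Adm repeated their main values by construction. Higd1a did so in the filter settings alone. By the authors' deposited table, at least 2-fold lower were 3 of the 9 genes, against 4.02% of the 14203 named genes with both values there. They were Ndrg1 at 7.04-fold, Ankrd37 at 4.05-fold and Mxi1 at 3.31-fold.

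**Figure D5:**
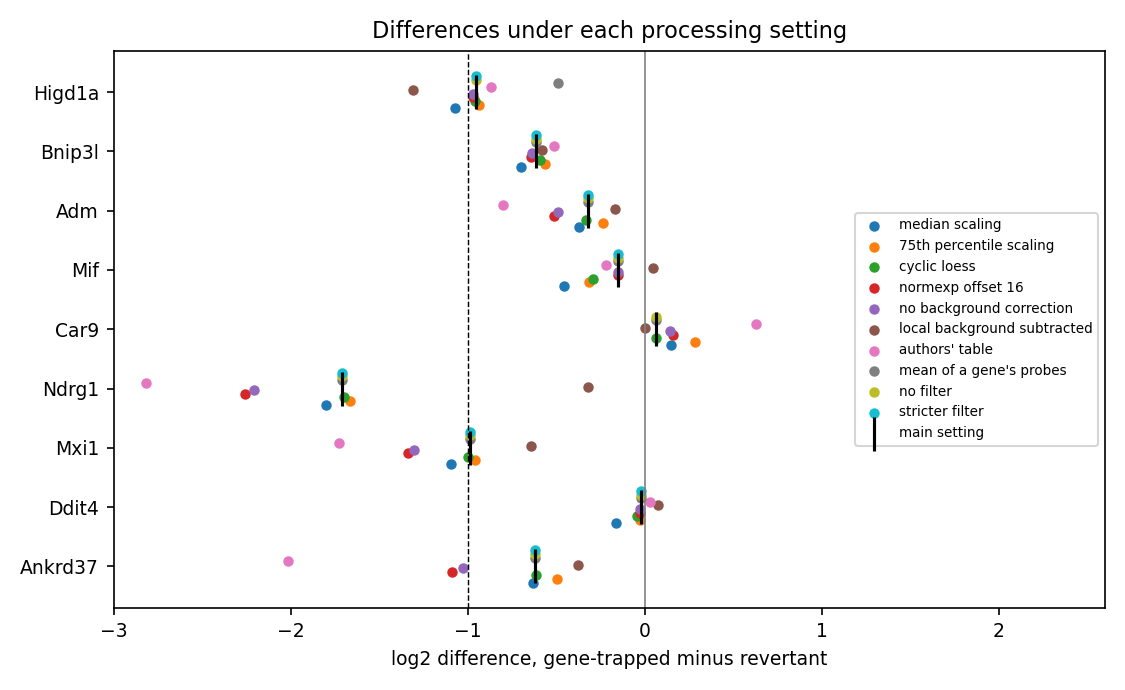
Log2 difference (gene-trapped minus revertant) of the 9 genes in the main setting (black bars) and in 10 other processing settings (coloured points), with a dashed line at 2-fold lower. Ndrg1 runs from -2.82 in the authors' table to -0.32 with the local background subtracted, whereas Bnip3l stays between -0.70 and -0.51.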

How the data were processed

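Per the labels' protocols, amplified RNA carried Cy5 on TORAY arrays, 1 per sample. The deposited scanner files hold linear intensity, a spot median taken at 3 gains joined by least squares, per the file headers; the scanner is not named. The authors' deposited table, also intensity, followed the spot median less about the blank mean (20.1 gene-trapped, 22.4 revertant) over 1 constant per array, so both columns have a median of 25, are linear and run in the direction of the scanner values; why some of its cells are empty is not stated.

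Spot medians were corrected with normexp (offset 50) and quantile-normalized on the log2 scale with limma 3.58.1 in R 4.3.3, after a check on simulated data. That check changed bright probes only, so it does not cover the dim probes of the set. Python 3.11.15, numpy 2.4.6, pandas 2.3.3 and matplotlib 3.10.9 made tables and figures. Control spots and 2 flagged probes were left out. The annotation names 16629 of 23471 probes, none with several symbols, and the brightest probe stood for a gene. Of 194 entries in 15 other gene lists, 6 were not matched and 14 matched by an older name. Named are the set itself, AU019823, Kdr, Hif1a, Epas1, Arnt, paralogs above background on both arrays, and up to 4 genes per other list by size of difference. Thy1, Lum, Tfrc and the marker genes under the background limit were named after their values were seen. The genes, lists and rules were chosen with earlier results of these data known. Promoters are from RefSeq, GRCm38.p6. The 10 alternatives were median, 75th percentile and cyclic loess normalization, offset 16, no background correction, subtraction of the local background, the authors' table, the mean of a gene's probes, no filter and a limit of 5 SD. No test was run, since each group has 1 array.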

Additional observations from a re-analysis of the deposited data

Results flagged for a closer look

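The local background that the scanner recorded around each spot was left out of the main setting. Around the spots of the 9 genes it held more signal than around blank spots. Its median was 29.0 on the gene-trapped and 232 on the revertant array, against 15.6 and 14.2 around the blank spots of the gene-trapped and the revertant array. On both arrays that median is the value at the Ndrg1 spot, so the gap between arrays is that of 1 spot. The range over the 9 genes was 16.5 to 7500 on the gene-trapped and 16.1 to 13881 on the revertant array. Mxi1 had 28.9 on the gene-trapped and 92.4 on the revertant array, Ddit4 284 and 371, and Car9 18.2 and 16.1. The column followed spot brightness, with log2 correlations across all probes of 0.96 on the gene-trapped and 0.97 on the revertant array.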

How the results depend on the processing

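No paired analysis was possible because there was a single array on each side. The 10 settings were fixed with earlier results known, and the 1.5-fold size was added after the values were seen. At least 2-fold lower were 1 of the 9 genes in the main setting and 3 under median scaling, with offset 16, without background correction and in the authors' table, and 0 of the 9 were 2-fold higher in any of these settings. At least 1.5-fold lower were 5 in the main setting, 3 under 75th percentile scaling and 2 with the local background subtracted. The median of -0.62 was -0.49 under 75th percentile scaling, -0.32 with the local background subtracted, -0.80 in the authors' table and -0.49 with the mean of a gene's probes. Scaling to the 75th percentile also put the median of all named genes at 0.15. Of all named genes, 148 were lower and 46 higher in the main setting, against 238 and 87 with offset 16, 227 and 84 without background correction and 571 and 285 in the authors' table. With the local background subtracted, 185 were lower and 280 higher, so that the balance turned. A smaller offset widens differences of dim probes by construction; apart from that the cause was not tested. Mif turned to 0.05 with the local background subtracted, and Ddit4 to 0.08 there and 0.03 in the authors' table. Car9 was below the stricter limit of 5 SD and has no value in that setting. Low signal over background limits Car9, Ankrd37 and Adm. It also bears on Ndrg1 and Mxi1, whose gene-trapped spot medians of 47.9 and 56.1 are close to the 46.0 of Adm.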
